A study of Mus musculus with 4 samples.

Results

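Follicular-type B-2 cells of the mouse peritoneal cavity were identified by their antigen receptor and by a handful of transcripts. A barcode counted as follicular-type when the receptor library held 1 IGHM heavy contig, 1 IGK light contig and no other contig for it. Its clonotype, that is all barcodes with the same V and J genes and the same CDR3 bases in heavy and light chain, had to hold 5 or fewer barcodes. In the expression matrix, Fcer2a and Cr2 together had to reach 2 unique molecular identifiers (UMIs, each standing for 1 captured transcript), with Zbtb32, Bhlhe41 and Zcwpw1 all at 0. This gave 1061 of 20124 barcodes, of which 451 were in the HFD library and 610 in the CD library. They came from 5470 barcodes that met the receptor conditions, 1951 in the HFD library and 3519 in the CD library.

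The HFD and CD samples were CD45+ cells sorted from peritoneal lavage of wild-type mice on the diet for 3 months from the age of 4 weeks. The design text gives CD as chow and HFD as high-fat diet, whereas the treatment note on every sample names a high-fat diet for both; the groups are called here by their labels. Strain, sex and the number or pooling of mice are not given in the sources used here. Each diet had 1 expression library and 1 receptor library, so no difference below has a replicate check, no p-value is given, and every interval covers counting error at 95% only.

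Follicular B cells are the recirculating naive B cells of spleen and lymph node follicles, and a minor share of peritoneal B cells beside the resident B-1 cells. They carry the low-affinity IgE receptor CD23 (Fcer2a), the complement receptor CD21 (Cr2), surface IgD and the chemokine receptors Ccr7 and Cxcr5, which guide them between blood, T-cell zones and follicles. B-1 cells are self-renewing, secrete natural IgM, and often carry restricted receptors such as IGHV11 or IGHV12 heavy chains against phosphatidylcholine.

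The receptors of these cells are shown first because their V and J genes and CDR3 bases entered the selection only through the limit on clonotype size. The heavy CDR3 is the loop built at the joint of V, D and J segments. In the sequences below capitals mark the bases between the V-gene end and the J-gene end, each end being what 80% or more of the clonotypes using that gene shared. The first 4 clonotypes held more than 1 barcode and all of their barcodes were follicular-type. The next pair used the commonest heavy V gene at the median CDR3 length, and the last is the largest IGHV11-2 clonotype of the series, shown for contrast.
HFD IGHV1-52 IGHJ1 with IGKV10-96: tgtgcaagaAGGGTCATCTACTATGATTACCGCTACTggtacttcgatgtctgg
HFD IGHV1-53 IGHJ3 with IGKV19-93: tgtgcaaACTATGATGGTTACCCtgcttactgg
CD IGHV1-15 IGHJ2 with IGKV12-41: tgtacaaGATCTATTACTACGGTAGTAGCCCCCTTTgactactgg
CD IGHV2-5 IGHJ1 with IGKV10-96: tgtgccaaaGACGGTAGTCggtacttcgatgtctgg
HFD IGHV1-26 IGHJ2 with IGKV5-43: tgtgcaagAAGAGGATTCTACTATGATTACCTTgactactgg
CD IGHV1-26 IGHJ2 with IGKV5-48: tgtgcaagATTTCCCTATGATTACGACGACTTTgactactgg
HFD and CD IGHV11-2 IGHJ1 with IGKV14-126: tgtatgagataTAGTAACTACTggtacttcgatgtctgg

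The IGHV1-52 loop ran to 54 bases with 28 between the gene ends, and the IGHV2-5 loop to 36 bases with 10. Both IGHV1-26 loops had 42 bases, 25 of them between the gene ends. The IGHV11-2 loop, which was not follicular-type, had the same 39 bases in 87 HFD and 208 CD barcodes, with 11 bases between the gene ends. None of the 431 HFD follicular-type clonotypes was among the 577 of CD, which allows a shared part of up to 0.696% of HFD and 0.52% of CD clonotypes. Their heavy CDR3 sequences, 430 in HFD and 577 in CD, had none in common either. Over all IGHM and IGK clonotypes of the libraries, 15 were found in both diets, 0.835% of 1797 in HFD and 0.473% of 3169 in CD. The limits for follicular-type clonotypes lie near these shares, so the lack of shared clonotypes cannot be called particular to them.

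Light chains recurred between the diets; kappa joints are known to carry few added bases. Of the distinct kappa CDR3 nucleotide sequences of follicular-type barcodes, 139 occurred in both diets, 59.1% of 235 in HFD and 50.4% of 276 in CD. Of the 4 most frequent, 3 are printed because the same 33 bases were paired with many heavy chains.
IGKV10-96 IGKJ1: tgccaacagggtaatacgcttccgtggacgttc
IGKV1-117 IGKJ4: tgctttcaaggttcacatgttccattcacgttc
IGKV1-117 IGKJ2: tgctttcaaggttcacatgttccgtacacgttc

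The IGKV10-96 sequence was found in 14 HFD clonotypes with 12 heavy V genes and in 9 CD clonotypes with 7. The IGKV1-117 IGKJ4 sequence was found in 9 HFD and 7 CD clonotypes, and the IGKJ2 form in 6 HFD and 9 CD clonotypes. These 3 sequences were also carried by B-1-gene barcodes, which is the name used here for barcodes that met the same receptor conditions with Fcer2a and Cr2 at 0 and Zbtb32, Bhlhe41 and Zcwpw1 together at 2 UMIs or more. There were 456 B-1-gene barcodes in the HFD library and 544 in the CD library.

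Most follicular-type clonotypes used the IGHV1 family. Each clonotype counted once, 67.7% of 431 HFD clonotypes (exact interval 63.1 to 72.1%) and 65.0% of 577 CD clonotypes (60.9 to 68.9%) used IGHV1. B-1-gene clonotypes used it in 45.4% of 390 (HFD) and 45.0% of 462 (CD), so that follicular-type clonotypes exceeded them by 22.4 points in HFD (15.6 to 28.8) and 19.97 points in CD (13.9 to 25.8). Between diets the follicular-type share differed by 2.76 points, with an interval of -3.16 to 8.57 that includes 0. In all, 77 heavy and 73 kappa V genes were used in HFD, and 80 heavy and 72 kappa V genes in CD. B-1-gene clonotypes used 72 heavy and 67 kappa V genes in HFD, and 77 and 71 in CD.

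Among single heavy V genes IGHV1-26 led in both diets, with 28 HFD clonotypes (6.50%) and 39 CD clonotypes (6.76%). IGHV1-80 was used by 3.94% of HFD and 3.81% of CD clonotypes, where B-1-gene clonotypes had 0.769% and 0.649%. Among kappa genes IGKV1-117 led with 7.19% in HFD and 7.11% in CD, and IGKV10-96 had 6.73% in HFD and 5.20% in CD, where IGKV1-110 and IGKV1-135 had as many clonotypes.

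Genes of the phosphatidylcholine-type receptors were nearly missing from the follicular-type clonotypes. IGHV12 was at 0 of 431 in HFD and 0 of 577 in CD, which allows up to 0.696% and 0.52%, where B-1-gene clonotypes had 8.97% and 3.90%. IGHV11 was found in 1 follicular-type clonotype of each diet, against 2.56% and 1.95% of B-1-gene clonotypes. The kappa partner IGKV4-91 was in 1 HFD and 2 CD follicular-type clonotypes, against 8.72% and 3.68% of B-1-gene clonotypes. Clonotypes of more than 5 barcodes are outside both kinds of barcode by the rule, so these shares do not include the large clones. Of 24 receptor shares compared between diets, IGHV5 was the one with an interval clear of 0, at 9.05% of HFD and 5.55% of CD follicular-type clonotypes, a difference of 3.50 points (0.292 to 6.97), and it is named because of its value.

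Heavy CDR3 loops of follicular-type clonotypes were longer on balance than those of B-1-gene clonotypes. The median was 42 bases in both diets (range 21 to 69 in HFD, 18 to 69 in CD), against 39 bases in B-1-gene clonotypes of both diets. Loops of 36 bases or fewer made up 25.3% of HFD and 30.5% of CD follicular-type clonotypes, against 34.9% and 45.5% of B-1-gene clonotypes. The difference was -9.58 points in HFD (-15.8 to -3.31) and -15.0 points in CD (-20.8 to -9.03). Loops of 48 bases or more made up 28.1% of HFD and 23.2% of CD follicular-type clonotypes, against 18.2% and 16.9%. The stretch between the gene ends had a median of 21 bases in both diets for follicular-type clonotypes, against 18.5 bases in HFD and 19 bases in CD for B-1-gene clonotypes. Kappa CDR3 length hardly varied, with 33 bases in 91.9% of HFD and 92.03% of CD follicular-type clonotypes.

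**Figure D1:**
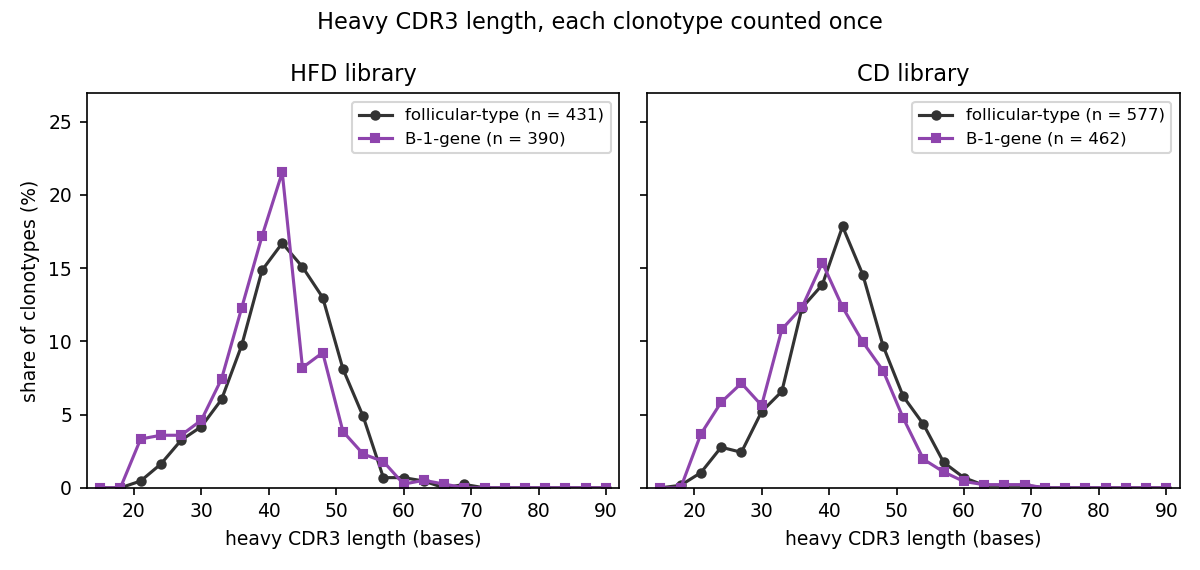
Heavy CDR3 length in bases (x) against the share of clonotypes in percent (y), each clonotype counted once, for follicular-type (dark) and B-1-gene (purple) clonotypes of the HFD library (left) and the CD library (right). The follicular-type curves peak at 42 bases in both libraries and lie below the B-1-gene curves at 24 bases.

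Heavy V regions of follicular-type barcodes rarely departed from the commonest sequence of their gene. Heavy sequences with the same V gene, V region and CDR3 were counted once. Of those that could be compared, 416 of 420 in HFD (99.0%) and 550 of 565 in CD (97.3%) carried the V-region sequence most frequent for their V gene in these libraries. Heavy sequences of B-1-gene barcodes did so in 96.8% (HFD) and 84.6% (CD). For IgG contigs of the same libraries, where somatic mutation is known to accumulate, the shares were 36.4% (16 of 44) and 22.9% (46 of 201).

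Most follicular-type barcodes had a clonotype of their own. Counted from each follicular-type barcode, partners within the small clones were follicular-type more often than any other kind. In HFD, 80 of 451 follicular-type barcodes (17.7%, 14.3 to 21.6%) were in a clonotype of 2 to 5 barcodes, and in CD 152 of 610 (24.9%, 21.5 to 28.5%). B-1-gene barcodes were in such clonotypes in 38.6% (HFD) and 46.7% (CD) of cases. The HFD clonotypes all had 2 barcodes, while CD had 27 follicular-type barcodes in clonotypes of 3, 5 in clonotypes of 4 and 3 in clonotypes of 5. Partners were counted from each follicular-type barcode in turn, so a clonotype with more than 1 follicular-type barcode enters more than once. In CD a barcode of a clonotype of 3 or more can also enter more than once. Of the partners in the matrix, 40 of 68 in HFD (58.8%) and 72 of 151 in CD (47.7%) were follicular-type too. Of the clonotypes of 2 to 5 that held a follicular-type barcode and were in the matrix complete, 20 of 48 in HFD and 28 of 81 in CD were follicular-type throughout. By clonotype, the 20 in HFD stood beside 21 whose partner had Fcer2a and Cr2 together at 0 or 1 and B-1 genes at 0. Among all barcodes in clonotypes of 2 to 5, follicular-type barcodes made up 13.1% in HFD and 10.2% in CD. A B-1-gene partner was seen in 0 of 68 HFD cases, which allows up to 4.41%, and in 1 of 151 CD cases (0.662%), where B-1-gene barcodes made up 28.9% and 17.1% of such clonotypes. The limit of 4.41% takes the 68 cases as independent, though some came from the same clonotype. Sister cells and 1 cell caught in more than 1 droplet cannot be told apart here.

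**Figure D2:**
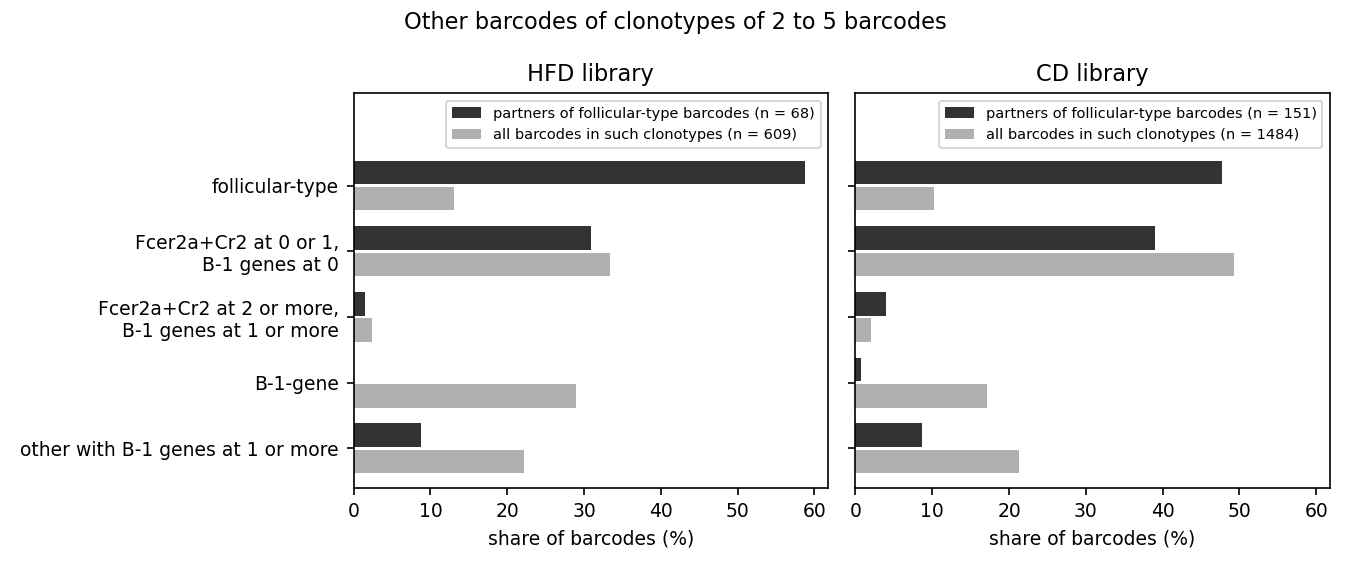
Share in percent (x) of the barcodes that share a clonotype of 2 to 5 barcodes with a follicular-type barcode (dark bars), by their own expression state (y), beside the same shares among all barcodes of such clonotypes (grey bars), for the HFD library (left) and the CD library (right). Counted from each follicular-type barcode in turn, follicular-type partners make up 58.8% in HFD and 47.7% in CD, and B-1-gene partners 0% and 0.662%.

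Vpreb3 and Ccr7, the marker genes that the rule did not use, were present and stood above their level in B-1-gene barcodes. Levels are UMIs summed over the barcodes of a library, per 1000000 UMIs (CPM). Vpreb3, a relative of the surrogate light chain genes, was at 149 CPM in HFD and 148 CPM in CD follicular-type barcodes, against 3.68 and 7.64 CPM in B-1-gene barcodes. Ccr7, the receptor that draws lymphocytes into lymph nodes, was at 427 CPM in HFD and 536 CPM in CD, against 90.1 and 134 CPM. Ighd, the IgD heavy chain, was at 558 CPM in HFD and 443 CPM in CD, against 131 and 111 CPM. Per barcode these are sparse counts, with a median of 0 Vpreb3 UMIs in both libraries, 1 (HFD) and 2 (CD) Ccr7 UMIs, and 3 (HFD) and 2 (CD) Ighd UMIs.

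Since depth differed, each barcode was also thinned to 2000 UMIs, which left out 13 HFD and 11 CD follicular-type barcodes. Vpreb3 was then seen in 28.3% of HFD and 26.4% of CD follicular-type barcodes, against 0.44% and 2.21% of B-1-gene barcodes and 0% and 0.733% of T barcodes. T barcodes are those with 3 or more UMIs of Cd3e, Cd3d and Cd3g and no receptor contig, 761 in HFD and 933 in CD, and serve as a cell type that lacks Vpreb3 and Fcer2a; their median depth was 5274 UMIs in HFD and 4112 UMIs in CD. In the HFD over CD ratios and list medians below, T barcodes with macrophage, NK and dendritic markers together over 1% of UMIs were left out. Before thinning, the Vpreb3 shares of follicular-type barcodes were 44.8% and 41.0% at median depths of 4995 (HFD) and 4587.5 (CD) UMIs. Fcer2a, which was part of the rule, was in 0.683% of HFD and 3.54% of CD thinned T barcodes, which gives the level of background. Ccr7 is shared with T cells and was in 35.9% and 35.3% of them.

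The rule admitted most barcodes through Fcer2a. Cr2 was at 0 in 225 HFD and 267 CD follicular-type barcodes, Fcer2a was at 0 in 20 and 36, and both were present in 206 and 307. The median sum was 3 UMIs in both libraries and the highest 17 in HFD and 15 in CD, so the threshold of 2 lies inside a continuous range. With the B-1 genes at 0, 217 HFD and 429 CD barcodes had a sum of 1, just outside, and 160 and 244 had a sum of 2, just inside. Just outside, Vpreb3 was at 119 CPM (HFD) and 82.3 CPM (CD), and just inside at 122 and 117 CPM. At sums of 5 or more it was at 175 and 185 CPM. Pxdc1 and Lmo2 rank the same way. Ccr7 does not: in HFD it was at 554 CPM just outside, 477 CPM just inside and 439 CPM at 5 or more, and in CD at 479, 560 and 557 CPM. At a sum of 0 Ccr7 was still at 369 CPM in HFD and 309 CPM in CD, so it does not set follicular-type barcodes apart from these. S100a6, which is high in B-1-gene barcodes, ranks opposite to Vpreb3, at 2873 CPM (HFD) and 2266 CPM (CD) for a sum of 0 and 971 and 709 CPM for 5 or more. A further 63 HFD and 97 CD barcodes reached the Fcer2a and Cr2 threshold but held 1 UMI of the B-1 genes; their Vpreb3 was at 92.2 and 78.5 CPM and their S100a6 at 1897 and 1379 CPM.

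**Figure D3:**
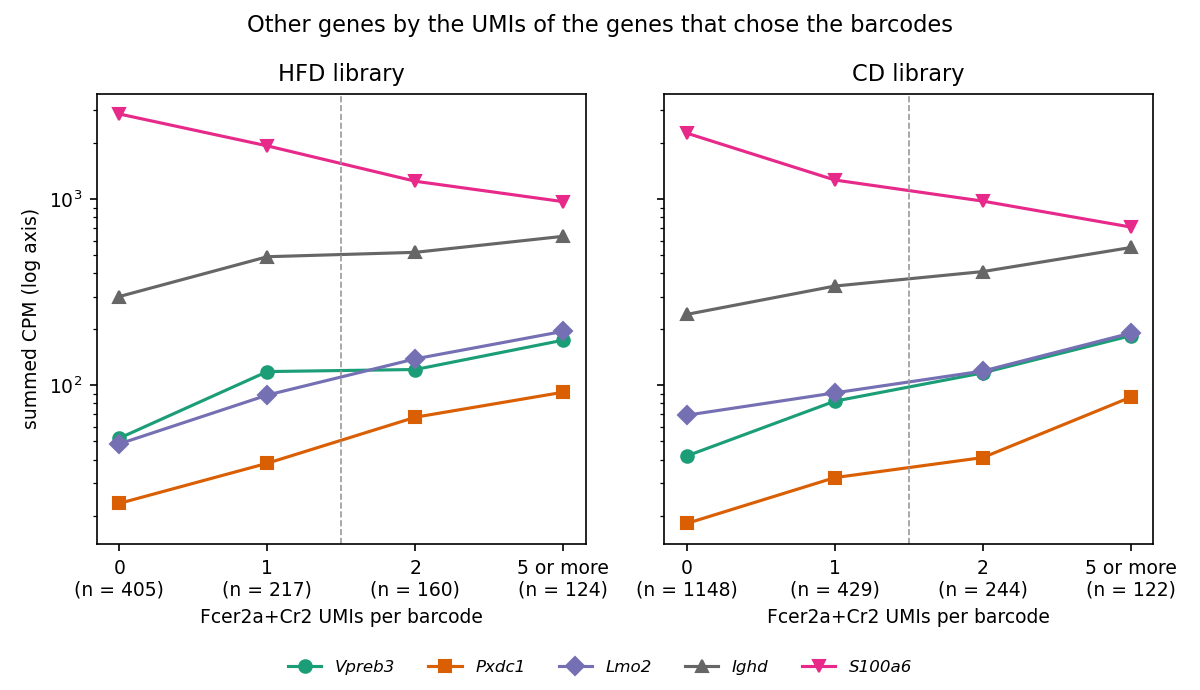
Summed CPM (y, log axis) of 5 genes that did not enter the rule, by the number of Fcer2a and Cr2 UMIs per barcode (x; sums of 3 and 4 are not drawn), among barcodes that met the receptor conditions with the B-1 genes at 0, in the HFD library (left) and the CD library (right). The dashed line is the threshold of the rule; Vpreb3 goes to 175 CPM in HFD and 185 CPM in CD at 5 or more UMIs.

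Several defining genes of other B-cell states were at 0 in follicular-type barcodes, while the summed levels of most of these lists were not low. The marginal zone gene S1pr3, the immature-stage genes Rag1, Rag2, Dntt and Igll1, and the germinal centre genes Rgs13, Gcsam and Nuggc were at 0 in both libraries, which allows 1.23 CPM in HFD and 0.991 CPM in CD. All of these except S1pr3 and Rgs13 were at 0 in B-1-gene barcodes of both libraries too. The plasma cell gene Jchain was at 0 in HFD and at 0.33 CPM in CD. Summed germinal centre markers reached 57.1 CPM in HFD and 49.2 CPM in CD follicular-type barcodes, against 48.6 and 38.4 CPM in B-1-gene barcodes. Marginal zone markers summed to 282 CPM in HFD and 232 CPM in CD, against 299.6 and 277 CPM. Transitional markers summed to 409.7 CPM in HFD and 459 CPM in CD, against 349.97 and 354 CPM. Cd24a, which mature B cells also express, gave 397 CPM of the HFD and 440 CPM of the CD transitional sum. Plasma cell markers summed to 1811 CPM in HFD and 1545 CPM in CD, and to 1192 and 851 CPM without mixed barcodes, against 1423 and 1809 CPM in B-1-gene barcodes, and 1409 and 1249 CPM without mixed ones. Xcr1 and Siglech, of dendritic cells, were at 0 in both libraries. Mast cell and red cell markers summed to 1.23 CPM or less in each library, neutrophil markers to 12.3 CPM in HFD and 4.29 CPM in CD, and NK markers to 21.8 and 19.5 CPM. T-cell markers summed to 60.4 CPM in HFD and 83.6 CPM in CD, and dendritic markers to 33.3 and 65.7 CPM.

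Macrophage transcripts were the main foreign signal. The 12 macrophage markers summed to 4372 CPM in HFD and 2762 CPM in CD follicular-type barcodes. Much of it sat in few barcodes: 3 HFD barcodes held 49.1% of the Lyz2 UMIs and 63.8% of the Fn1 UMIs, and 3 CD barcodes held 35.6% and 44.7%. In 6 HFD (1.33%) and 9 CD (1.48%) follicular-type barcodes, macrophage, T, NK and dendritic markers together exceeded 1% of UMIs; these are called mixed barcodes below. Without them the sums were 1505 CPM in HFD and 1074 CPM in CD, and values with and without mixed barcodes stand side by side below for the genes and lists that move most.

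Compared with B-1-gene barcodes, 159 of 8035 genes (1.98%) were at least 2-fold higher and 165 (2.05%) at least 2-fold lower in follicular-type barcodes of both libraries, with both intervals clear of 0 on the log2 scale. The 2 kinds of barcode were chosen on their transcripts, so these genes describe them and test nothing. B-1-gene barcodes were also deeper, with medians of 8453.5 UMIs in HFD and 6724 UMIs in CD.

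Pxdc1 and Vpreb3 stood furthest above the B-1-gene level. Pxdc1 was at 79.2 CPM in HFD follicular-type barcodes against 0.737 CPM (3 UMIs) in HFD B-1-gene barcodes, a log2 ratio of 6.75 (5.18 to 9.04), and the CD log2 ratio was 4.58. Rasgrp3, which activates Ras below the B-cell receptor, had log2 ratios of 3.24 in HFD and 3.34 in CD. Satb1, a chromatin organiser of lymphocytes, had 3.14 and 3.02, and Fcrl1, an Fc receptor-like coreceptor of naive B cells, had 2.50 and 2.31. Icosl, the ligand of the T-cell costimulator ICOS, was at 117 CPM in HFD and 82.9 CPM in CD follicular-type barcodes, against 14.5 and 7.64 CPM in B-1-gene barcodes. Neurl3, Lrrk2, Gsn, Ms4a4c, Cpm and Chchd10 completed the 12 highest, with log2 ratios between 2.59 and 3.59.

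Ahnak2 stood furthest below the B-1-gene level and S100a6 was the most abundant of the low genes. Ahnak2 was at 2.05 CPM in HFD and 0.991 CPM in CD follicular-type barcodes, against 98.2 and 65.1 CPM in B-1-gene barcodes. S100a6, a calcium-binding protein, was at 1220 CPM in HFD and 862 CPM in CD, against 5987 and 4349 CPM, with log2 ratios of -2.29 and -2.34. Sox5, a transcription factor found in B-1 and atypical B cells, had log2 ratios of -2.61 and -2.25, and the inhibitory receptor Fcrl5 had -2.14 and -2.17. Csf2rb, the shared beta chain of the IL-3, IL-5 and GM-CSF receptors, had -2.80 and -2.31. Agbl1, Pou2af2, Plscr1, Tppp3, Ccdc28b, Ms4a6c and S100a4 had log2 ratios between -5.73 and -2.02.

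**Figure D4:**
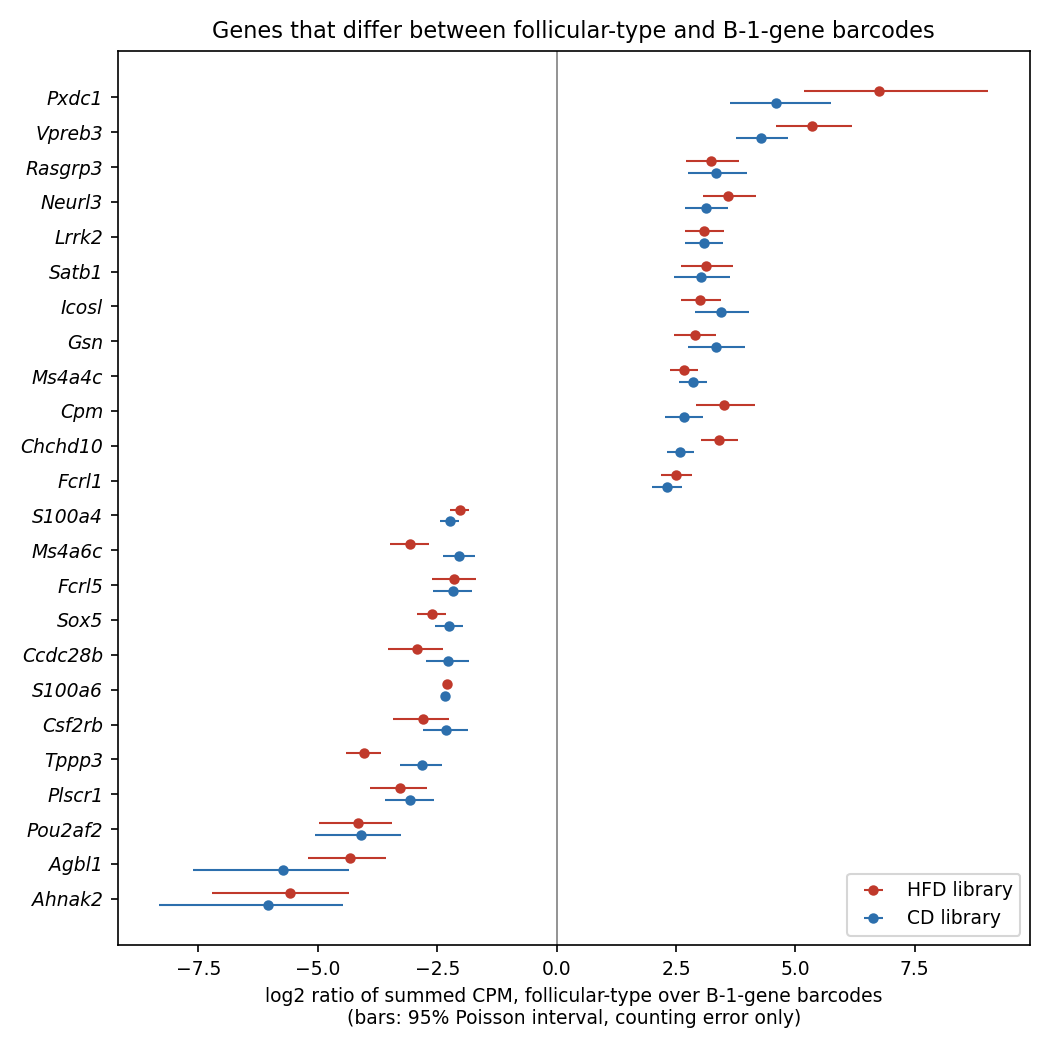
Log2 ratio of summed CPM, follicular-type over B-1-gene barcodes (x), for the 12 highest and 12 lowest genes (y) in the HFD library (red, upper point) and the CD library (blue, lower point); bars are 95% Poisson intervals for counting error. Pxdc1 lies at 6.75 in HFD and 4.58 in CD, and S100a6 at -2.29 and -2.34.

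Follicular-type barcodes were not uniform among themselves. S100a6 reached 20 per 10000 UMIs in 74 of 445 HFD barcodes (16.6%) and 68 of 601 CD barcodes (11.3%), mixed barcodes left out. In this S100a6-high group Vpreb3 was at 44.0 CPM in HFD, against 183 CPM in the remaining HFD barcodes, and at 43.4 CPM in CD, against 168 CPM. Fcer2a was at 405 CPM against 655 CPM in HFD, and at 370 CPM against 554 CPM in CD. Cr2 was at 155 against 181 CPM in HFD and 171 against 185 CPM in CD. The rule used both of these genes, so their levels here are a description only. The adhesion and cytoskeletal genes Lgals1, Anxa2 and Vim were higher in the S100a6-high group of both libraries, with Lgals1 at 201 against 56.9 CPM in HFD and 184 against 69.4 CPM in CD. Of the low genes named above, Sox5 was at 57.9 against 35.98 CPM in HFD and 76.6 against 28.2 CPM in CD. S100a4 was at 104 against 38.7 CPM in HFD and 250 against 55.3 CPM in CD. Csf2rb was not higher, at 9.26 against 11.8 CPM in HFD and 12.8 against 12.9 CPM in CD. Plscr1 was at 11.6 against 11.8 CPM in HFD and 17.9 against 11.8 CPM in CD. Ahnak2 was at 6.94 CPM (3 UMIs) against 1.07 CPM in HFD and 2.55 CPM (1 UMI) against 0.392 CPM in CD. The levels of Sox5, S100a4, Csf2rb, Plscr1 and Ahnak2 in the S100a6-high group lay below those of B-1-gene barcodes. Vpreb3 in that group lay above the B-1-gene level in both libraries. The cut on S100a6 was set after its spread was seen, and it divides a continuous range.

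Follicular-type barcodes made up a larger share of the receptor-matched B cells in HFD. The share was 451 of 1951 in HFD, or 23.1% (21.3 to 25.1%), and 610 of 3519 in CD, or 17.3% (16.1 to 18.6%), a difference of 5.78 points (3.56 to 8.06). B-1-gene barcodes also had the larger share in HFD, at 23.4% against 15.5%, and barcodes with none of the 5 rule genes were fewer, at 405 of 1951 against 1148 of 3519. The HFD library had the deeper barcodes, with a median of 6298 UMIs over all barcodes against 4416 in CD. After thinning to 2000 UMIs the difference was 2.58 points, and with Fcer2a and Cr2 each required at 1 UMI it was 1.83 points, so its size depended on the threshold and on depth.

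Between diets, 519 of 7741 genes (6.7%) were higher and 171 (2.21%) lower in HFD than in CD follicular-type barcodes, by a log2 ratio of 0.5 or more with an interval clear of 0, in all 690 (8.91%). The median log2 ratio of all 7741 genes was 0.06. Without mixed barcodes the counts were 437 of 7606 (5.75%) and 172 (2.26%), of which 393 and 137 genes were shared with the first counts. Below, such genes are said to have risen or fallen, which describes these libraries. Counts of such genes in a list are to be read beside the 6.7% that rose and the 2.21% that fell over all genes.

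Genes known from macrophages and other myeloid cells led those that rose. Cd5l, a secreted macrophage protein, was at 73.9 CPM in HFD and 16.2 CPM in CD, a log2 ratio of 2.19 (1.73 to 2.68). Pf4, a chemokine of platelets and macrophages, was at 319 CPM in HFD and 70.7 CPM in CD, and Fn1, fibronectin, at 708 and 188 CPM. Emilin2, Ltc4s, Itgam, Cxcl2, Serpinb2, Lyz1, Grn, Padi4 and Fabp4 had log2 ratios of 1.35 to 1.84. Of the 12 macrophage markers 8 rose (median log2 ratio 0.82), while Apoe and Cxcl13 fell. Without mixed barcodes the median of 10 measured macrophage markers was 0.29 and Lyz1 had a log2 ratio of 0.42 with an interval that includes 0.

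Pf4, Slpi and Prg4 were also higher in other HFD cells. Without mixed barcodes Pf4 was at 110 CPM in HFD and 32.0 CPM in CD follicular-type barcodes, a log2 ratio of 1.78, beside 2.12 in B-1-gene barcodes and 1.51 in T barcodes. Slpi, a secreted protease inhibitor, was at 593 CPM in HFD and 182 CPM in CD, with log2 ratios of 1.70, 1.47 and 1.52 in the same order. With mixed barcodes its log2 ratio in follicular-type barcodes was 0.48. Prg4 had 1.13, 1.07 and 1.29. Other macrophage genes were less even: Grn had 0.89, 0.43 and -0.14, and Adgre1 had 1.39, 0.17 and 0.77, where the intervals of Grn in T barcodes and of Adgre1 in B-1-gene barcodes include 0. The part of free RNA in these values was not tested.

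Cxcl13 and Apoe, both made by peritoneal macrophages, stood at the other end. Cxcl13, the ligand of Cxcr5, was at 18.5 CPM in HFD and 139 CPM in CD, a log2 ratio of -2.92 (-3.39 to -2.47), and -1.52 without mixed barcodes, beside -1.86 in B-1-gene and -1.95 in T barcodes. Apoe was at 181 CPM in HFD and 517 CPM in CD, a log2 ratio of -1.51, and -1.14 without mixed barcodes, beside -0.10 in B-1-gene barcodes, where the interval includes 0, and -2.06 in T barcodes.

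Cd69, Tagap, Myc and Nfkbid, of the B-cell activation list, fell in HFD follicular-type barcodes. Cd69, the early activation antigen that also holds lymphocytes in tissue, was at 98.5 CPM in HFD and 246 CPM in CD, a log2 ratio of -1.32 (-1.54 to -1.11). At 2000 UMIs it was in 18.9% of HFD and 37.2% of CD follicular-type barcodes, and in 9.43% and 22.8% of T barcodes. Tagap, a GTPase-activating protein of activated lymphocytes, was at 43.9 CPM in HFD and 123 CPM in CD, a log2 ratio of -1.48 (-1.80 to -1.17). Myc was at 44.8 CPM in HFD and 74.98 CPM in CD, and Nfkbid, a nuclear regulator of NF-kB, at 36.5 and 68.0 CPM. Nfkbid was present in 15.3% of HFD and 14.6% of CD follicular-type barcodes, so its fall was in UMIs and not in the share of barcodes. Of 13 measured genes of the list these 4 fell and none rose, while 5 were above 0 and the median log2 ratio was -0.16. Without barcodes over 2 times the median depth that median was 0.0015.

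Cd69 and Tagap fell in the other cells too, and Myc and Nfkbid did not fall in all of them. Without mixed barcodes Cd69 had a log2 ratio of -1.28 in follicular-type, -1.53 in B-1-gene and -1.22 in T barcodes, and Tagap had -1.42, -1.48 and -1.36. Myc had -0.84 in follicular-type and -0.95 in B-1-gene barcodes, and 0.55 in T barcodes. Nfkbid had -0.89 in follicular-type barcodes, 0.74 in B-1-gene barcodes and -0.31 in T barcodes, where the interval includes 0.

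Immediate early genes, which respond to stimulation within minutes and to cell handling, were lower on balance. Of 16 measured, 12 had a log2 ratio below 0, 5 fell and none rose, with a median of -0.19. Fos was at 110 CPM in HFD and 243 CPM in CD, a log2 ratio of -1.15 (-1.36 to -0.95), and Klf6 at 165 and 260 CPM, a log2 ratio of -0.65. Egr1, at 17.2 CPM in HFD and 32.4 CPM in CD, had -0.91, Fosb -1.31 and Atf3 -1.01. Without mixed barcodes Fos had -1.18 in follicular-type, -0.53 in B-1-gene and -0.39 in T barcodes, while Klf6 had -0.73, -0.74 and -0.53. Egr1 had -1.56 in follicular-type barcodes without mixed barcodes. The list medians were then -0.29, 0.00 and -0.22.

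Cytosolic chaperones moved the same way. Of 9 measured heat shock genes 8 had a log2 ratio below 0 and 4 fell, with a median of -0.47. Hspa8, the constitutive Hsp70, was at 862 CPM in HFD and 1305 CPM in CD, a log2 ratio of -0.60 (-0.67 to -0.52). Hsph1, Dnaja1 and Dnajb1, its exchange factor and co-chaperones, had -0.88, -0.64 and -0.72. Hsp90aa1 had -0.47, which is short of the threshold. Without mixed barcodes the list median was -0.55 in follicular-type, -0.46 in B-1-gene and -0.28 in T barcodes.

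Of 18 measured genes of the endoplasmic reticulum stress list, 14 had a log2 ratio below 0 and Pdia4, a protein disulfide isomerase, fell, at 126 CPM in HFD and 178 CPM in CD, with a list median of -0.18. Without mixed barcodes 3 fell, Pdia4, Hsp90b1 and Sdf2l1, and the medians were -0.23 in follicular-type, -0.40 in B-1-gene and -0.32 in T barcodes. Glucocorticoid-responsive genes had 4 of 10 that fell and none that rose. Tsc22d3, which encodes the glucocorticoid-induced leucine zipper, was at 284 CPM in HFD and 480 CPM in CD, a log2 ratio of -0.76, and Ddit4 and Il7r had -0.99 and -0.98. Tsc22d3 without mixed barcodes had -0.73 in follicular-type, -0.80 in B-1-gene and -0.95 in T barcodes.

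Homing and egress genes split, with 3 of 16 that rose and 3 that fell, where 6.7% of all genes rose and 2.21% fell. Cd69 above is one of those that fell. Without mixed barcodes 1 of the 16 rose and 3 fell, and the list median was -0.20 in place of 0.02. Cxcr4, the CXCL12 receptor that retains B cells in bone marrow and dark zones, was at 12.3 CPM in HFD and 43.9 CPM in CD, a log2 ratio of -1.83 (-2.46 to -1.25). Without mixed barcodes it was -1.77 in follicular-type barcodes, -0.47 in B-1-gene barcodes with an interval of -1.03 to 0.09, and -0.76 in T barcodes. Cxcr5, which takes B cells into follicles, was at 181 CPM in HFD and 268 CPM in CD, a log2 ratio of -0.56, and its ligand Cxcl13 was at the foot of the named genes. Ccr6, the receptor for the chemokine CCL20, rose to 66.9 CPM in HFD, against 42.6 CPM in CD, a log2 ratio of 0.65 (0.309 to 0.996). Ccr7 had -0.33 and S1pr1, the receptor for exit into lymph and blood, -0.47, both short of the threshold. Klf2, a transcription factor of lymphocyte trafficking, was at 1471 CPM in HFD and 1455 CPM in CD, a log2 ratio of 0.02. Itgb1 and Itgb2 rose with log2 ratios of 0.53 and 0.75, and without mixed barcodes had -0.35 and 0.12.

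Of 11 measured follicular maturation genes 1 rose, a share near that of all genes that rose (6.7%). Nfkb2, the subunit of the alternative NF-kB pathway below the BAFF receptor, rose to 144 CPM in HFD, against 91.2 CPM in CD, a log2 ratio of 0.66 (0.42 to 0.89). Its partner Relb had 0.43 and the BAFF receptor Tnfrsf13c, at 204 CPM in HFD and 167 CPM in CD, had 0.29; neither reached the threshold. In the list 9 of the 11 had a log2 ratio above 0, and the median was 0.12 where that of all genes was 0.06. Without mixed barcodes Nfkb2 had 0.69 in follicular-type, 0.27 in B-1-gene and 0.42 in T barcodes. In the broader NF-kB list 2 of 15 rose, Nfkb2 and the myeloid chemokine Cxcl2, and 3 fell, Tnf, Tnfaip3 and Icam1. Without mixed barcodes Bcl3 (0.53) and Traf1 (0.54) passed the threshold as well.

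B-cell receptor signalling genes were mostly level, with a median log2 ratio of 0.01 over 19 genes. Cd72, an inhibitory coreceptor, rose to 95.7 CPM in HFD, against 60.4 CPM in CD, a log2 ratio of 0.66 (0.38 to 0.95), and Pik3ap1, an adaptor that links the B-cell receptor complex to PI3-kinase, rose to 66.9 CPM, against 45.3 CPM in CD. Both were also higher in HFD B-1-gene barcodes, with log2 ratios of 0.95 and 0.56. Ighd was at 558 CPM in HFD and 443 CPM in CD, a log2 ratio of 0.33 (0.22 to 0.44), while Ighm was at 1625 and 1588 CPM and Igkc at 1656 and 1647 CPM. None of the 7 measured immunoglobulin constant genes and none of the 10 pan-B markers reached the threshold, with medians of 0.03 and 0.02.

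Antigen presentation did not separate the diets at this depth. None of 11 MHC class II genes reached the threshold, and Cd74, the invariant chain, was at 25518 CPM in HFD and 24381 CPM in CD. None of 9 costimulatory genes reached it either, with a median log2 ratio of 0.31. Icosl, at 117 CPM in HFD and 82.9 CPM in CD, had a log2 ratio of 0.49 (0.24 to 0.74), and 0.51 without mixed barcodes, where it passed the threshold. The MHC class II median was 0.04.

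Interferon genes gave 3 of 23 that rose and none that fell, with a median log2 ratio of 0.12. Over all genes 6.7% rose and 2.21% fell. Isg15, a ubiquitin-like protein induced by interferon, rose to 21.8 CPM in HFD, against 12.9 CPM in CD, and Ifit3 to 11.9 CPM, against 2.31 CPM in CD. Their log2 ratios were 0.76 (0.13 to 1.39) for Isg15 and 2.36 for Ifit3. The abundant members Ly6e and Ifi27l2a had -0.01 and -0.09.

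Metabolic lists were centred on 0. The 22 nuclear respiratory chain genes had a median log2 ratio of 0.00 with none past the threshold, and 13 glycolysis genes had 0.00 with Hk1 past it at 0.52, and at 0.38 with an interval that includes 0 without mixed barcodes. Fatty acid oxidation had a median of 0.06 over 18 genes, with Cpt1a and Eci2 past it. Cpt1a, which admits long-chain fatty acids into mitochondria, was at 62.8 CPM in HFD and 29.7 CPM in CD, a log2 ratio of 1.08 (0.69 to 1.47). Without mixed barcodes it was 1.07 in follicular-type, 1.14 in B-1-gene and 1.10 in T barcodes. Sterol genes had a median of 0.05 over 19, with 2 past the threshold, among them Nsdhl at 13.5 CPM in HFD and 6.94 CPM in CD, which was the 1 left without mixed barcodes. None of 8 measured cell cycle genes reached it, with a median of 0.06.

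Of 6 cold and stress RNA genes 1 rose and 1 fell, with a median of 0.17. Rsrp1 was at 147 CPM in HFD and 331 CPM in CD, a log2 ratio of -1.18, while Cirbp, a cold-inducible RNA-binding protein, rose to 162 CPM, against 104 CPM in CD, a log2 ratio of 0.64. Without mixed barcodes Rsrp1 had -1.20 in follicular-type, -1.02 in B-1-gene and -0.93 in T barcodes, and Cirbp had 0.67, 0.95 and 0.59. Tubb6, a beta-tubulin, fell to 20.5 CPM in HFD, against 55.5 CPM in CD, and without mixed barcodes had -1.60 in follicular-type, -0.27 in B-1-gene and -1.16 in T barcodes. Gm26532, Gm10076, Tmem176b and Ankrd37 completed the 12 lowest among genes with 50 CPM in the higher library, 50 UMIs and 10% of barcodes, with log2 ratios of -1.38 to -1.01.

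**Figure D5:**
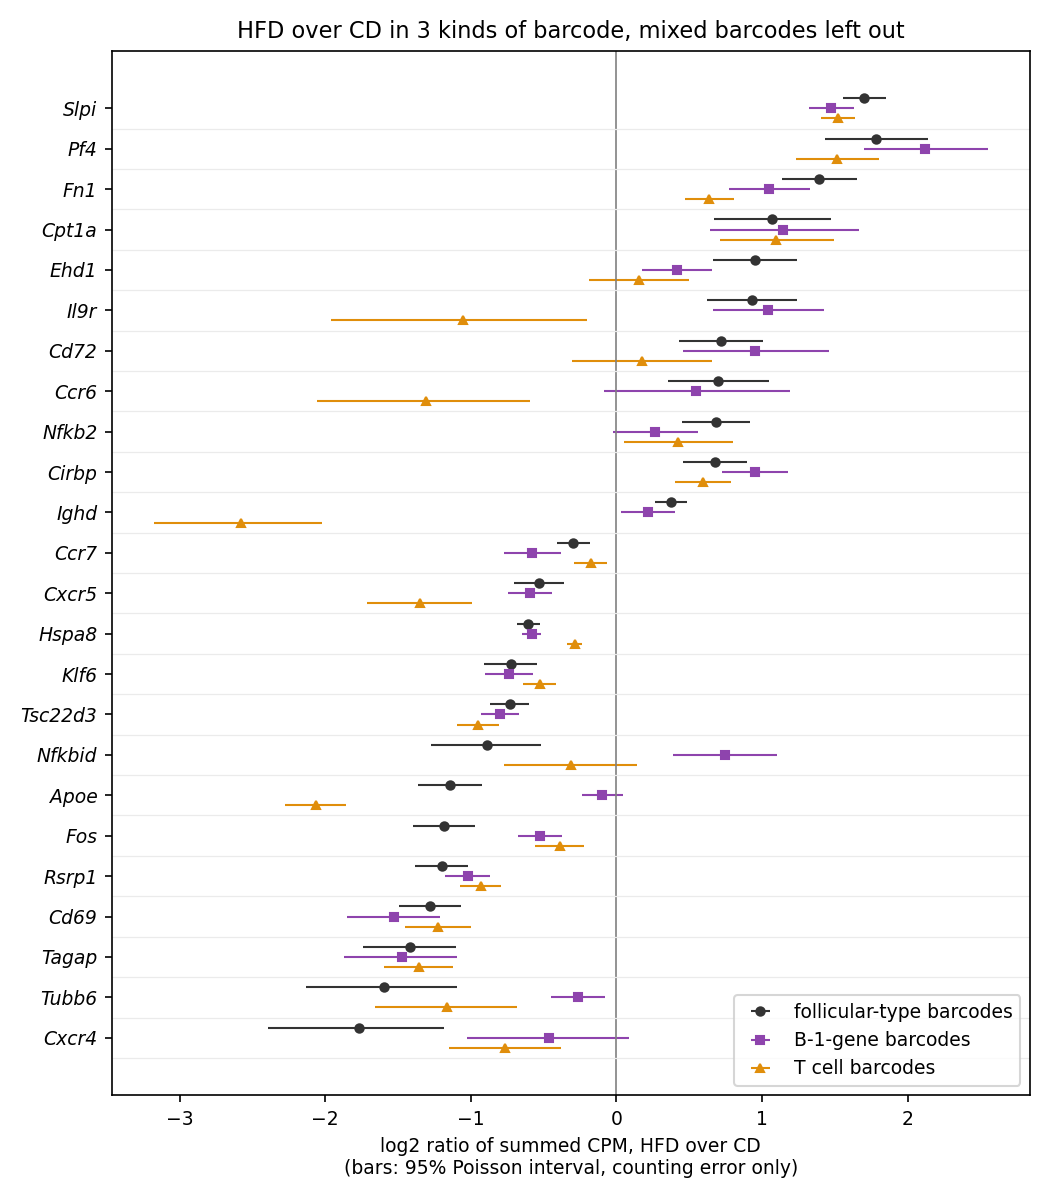
Log2 ratio of summed CPM, HFD over CD (x), for 24 genes (y) chosen after their values were seen, in follicular-type (black circles), B-1-gene (purple squares) and T cell barcodes (orange triangles), mixed barcodes left out; bars are 95% Poisson intervals for counting error. Cd69 lies at -1.28, -1.53 and -1.22, whereas Nfkbid lies at -0.89, 0.74 and -0.31.

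Lists of other B-cell states and of other lineages had few measured genes, many of them at low counts. Of the 4 follicular markers none passed the threshold, with a median log2 ratio of -0.05. The rule used Fcer2a and Cr2 in both libraries, so that median is partly set by the rule. Of 3 germinal centre genes none passed it, with a median of 0.24. Of 8 B-1 markers Cd9, Tppp3 and S100a6 rose while Cd5 and Spn fell, both under 10 CPM, with a median of 0.02. Without mixed barcodes Tppp3 was the 1 that rose, with Cd9 and S100a6 at 0.49 each. S100a6 was at 1220 CPM in HFD and 862 CPM in CD, and in B-1-gene barcodes at 5987 and 4349 CPM. Of 7 marginal zone genes Cd9 and Myof rose (median 0.10), and of 5 atypical B-cell genes the myeloid integrin Itgam rose (median 0.30). Without mixed barcodes none of 6 measured marginal zone genes passed the threshold, and the atypical B-cell median was -0.02, with Itgam at 0.90. Of 2 transitional genes Il7r fell (median -0.57), and of 6 plasma cell genes Fkbp11 fell (median -0.15). Of 5 T-cell markers Cd3d and Trbc2 fell (median -0.38), and of 2 dendritic markers Cd209a fell to 1.64 CPM in HFD, against 36.7 CPM in CD (median -2.16). The single measured NK marker had -0.14 and the single measured neutrophil marker 0.61, neither past the threshold. No mast cell or red cell marker had enough UMIs to be measured.

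All 10 pan-B genes were lower in HFD than in CD T barcodes, with a median log2 ratio of -1.90; its part in the T barcode values of genes that B cells also express was not tested. Il9r, the interleukin-9 receptor, was at 94.6 CPM in HFD and 49.6 CPM in CD follicular-type barcodes, with log2 ratios of 0.93 there and 1.04 in B-1-gene barcodes. Ehd1, an endocytic recycling protein, was at 109 CPM in HFD and 56.4 CPM in CD, with log2 ratios of 0.95 and 0.42. Cacna1e, a calcium channel subunit, had 1.05 and 0.58. Il9r, Ehd1 and Cacna1e, like Prg4 and Slpi above, were named after their values without mixed barcodes were seen.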

How the data were processed

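The deposited expression matrices hold counts of UMIs per gene and barcode, made by the authors with Cell Ranger 8.0.1 per the file headers. Per the submitters' processing notes the tools were Seurat 4.3.0 and Cell Ranger 6.0.1, on build mm39. The authors' other deposited tables are receptor contig annotations with V, J and C genes and CDR3 nucleotides. The labels name a 3' v3.1 kit for all libraries. The members and gene lists were chosen with earlier results of these data known.

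Here, Python 3.11.15 with numpy 2.4.6, scipy 1.17.1 and pandas 2.3.3 summed UMIs over barcodes. The HFD matrix held 6897 barcodes and 57630074 UMIs, and the CD matrix 13227 barcodes and 73549582 UMIs. Follicular-type barcodes summed to 2435708 UMIs in HFD and 3027349 UMIs in CD. Log2 ratios of CPM have exact conditional Poisson intervals, shares have Clopper-Pearson and differences of shares Newcombe intervals, all 95% and for counting error only. Genes compared between diets had 30 UMIs or more over both sums and were in 5% or more of the members of a library; receptor segments were left out. List members needed 20 UMIs. Named genes had 50 CPM in the higher library, 50 UMIs and 10% of members, and were the 12 highest and 12 lowest of each comparison, plus the rule's genes, all genes of lists of 6 or fewer and up to 4 of each longer list; other list genes are named after their values were seen. Some genes that the rule picks are not reported here. The calls were tested on simulated data with Poisson counts only. That simulation left out the uneven spread of UMIs over barcodes, so it cannot show how the calls behave under it. No doublet caller was run; barcodes with a second receptor chain were out by the rule, and mixed barcodes were left out as an alternative. The 2 libraries shared 30 barcode sequences, 1 of them of an HFD member. Alternatives covered quality filters, thinning, the rule's thresholds, clonotype size, mixed, deep and shared barcodes, weighting, scaling and the filter on low counts.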

Additional observations from a re-analysis of the deposited data

Results flagged for a closer look

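For 11 named genes the HFD over CD log2 ratio had opposite signs in follicular-type and B-1-gene barcodes, with both intervals clear of 0; the difference between the 2 kinds of barcode was not tested. In follicular-type barcodes Fn1 had 1.92, Cd5l 2.19, Emilin2 1.84, Ltc4s 1.74, Cxcl2 1.45, Serpinb2 1.43, Lyz1 1.43, Padi4 1.35 and Fabp4 1.35. In B-1-gene barcodes these 9 genes had -1.08 (Fn1), -1.08 (Cd5l), -1.11 (Emilin2), -1.38 (Ltc4s), -0.65 (Cxcl2), -1.43 (Serpinb2), -2.02 (Lyz1), -1.06 (Padi4) and -2.72 (Fabp4). Mixed barcodes numbered 6 in HFD and 9 in CD follicular-type barcodes, and 3 in HFD and 13 in CD B-1-gene barcodes. Without them all 9 genes were above 0 in both kinds, for example Fn1 at 1.39 and 1.05, Serpinb2 at 0.97 and 1.39, and Lyz1 at 0.42 and 0.24. In B-1-gene barcodes the intervals of Cd5l, Emilin2, Fabp4 and Lyz1 then included 0, as did that of Lyz1 in follicular-type barcodes.

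The other 2 genes kept their opposite signs without mixed barcodes. Nfkbid had -0.90 in follicular-type and 0.78 in B-1-gene barcodes, and -0.89 and 0.74 without mixed barcodes. In follicular-type barcodes it rested on 89 UMIs in HFD and 206 UMIs in CD, in 15.3% and 14.6% of barcodes. The share of barcodes with Nfkbid was thus not lower in HFD. Tnf had -0.92 and 1.10, and -0.98 and 1.10 without, on 9.44 CPM in HFD and 17.8 CPM in CD follicular-type barcodes. Over all genes, 61 of the 690 past the threshold had opposite signs in this sense, of which 57 were higher in HFD follicular-type barcodes, and 7 kept both intervals clear of 0 without mixed barcodes.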

How the results depend on the processing

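With 1 library per diet no replicate could be left out. No paired analysis was possible because the libraries carry no replicate numbers. Over 93 named genes, 997 of 1023 alternative values kept their sign and 877 stayed inside the counting interval. The share difference of 5.78 points was 1.83 with Fcer2a and Cr2 each at 1 UMI and 2.58 after thinning to 2000 UMIs. Thinning gave 161 genes higher and 101 lower in HFD, in place of 519 and 171, with fewer members and less depth. Against B-1-gene barcodes thinning gave 83 genes higher and 40 lower, and no filter on low counts 241 and 248, in place of 159 and 165. The heat shock median of -0.47 was -0.58 with each gene at 1 UMI and -0.60 thinned. The immediate early median of -0.19 was -0.35 and -0.38 in the same settings, and -0.29 without mixed barcodes, an alternative chosen after seeing the data. The IGHV1 excess over B-1-gene clonotypes was 35.4 points in HFD and 29.8 points in CD when thinned. Some values of Abcg1, Ccnl1, Cd86, Clk1, H2-DMb1, Iglc1 and Iglc2, none of them past the threshold as reported, changed sign, as did list medians near 0 such as B-cell activation and homing. Of genes past the threshold, 9 values turned: Egr1, at 0.078 with Fcer2a and Cr2 at 3 UMIs or more, and, with each gene at 1 UMI, Emilin2 (-0.040), Fabp4 (-0.73), Itgb2 (-0.25), Ltc4s (-0.18), Lyz1 (-0.34), and Padi4 (-0.0078); Lyz1 was also at -0.16 thinned and at -0.18 without barcodes over 2 times the median depth. The macrophage median was -0.51 with each gene at 1 UMI. The cause was not tested. Leaving out barcodes with 2 or more UMIs of other-lineage markers kept 5 HFD and 41 CD members and gave no value. Depth limits low genes most: the interval of Tnf ran from -1.69 to -0.19.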

Other observations

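Follicular-type barcodes carry 1 kappa contig and, by the rule, no lambda contig, yet their expression counts held lambda constant transcripts. Iglc2 was at 1148 CPM in HFD and 1186 CPM in CD follicular-type barcodes and was present in 98.4% and 96.7% of them. Iglc3 was at 1069 CPM in HFD and 1040 CPM in CD, beside Igkc at 1656 and 1647 CPM. Barcodes with 1 heavy and 1 lambda contig had Iglc2 at 1300 CPM in HFD and 1150 CPM in CD, Iglc3 at 613 and 609 CPM, and Igkc at 235 and 388 CPM. T barcodes had Iglc2 at 78.1 CPM in HFD and 284 CPM in CD, and Igkc at 73.0 and 269 CPM. The contig tables counted a median of 49 kappa UMIs per follicular-type barcode in HFD and 52 in CD, where the matrices counted a median of 8 and 7 Igkc UMIs.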
